A study of Homo sapiens with 6 samples.

Results

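The apolipoprotein genes described here are APOA1, APOA2, APOA4, APOA5, APOB, APOC1, APOC3, APOE, APOH and APOM, which are 10 of the 23228 genes in the tables. They were picked by name, with their read counts in these same libraries already known, so their differences between the groups are given as a description and without a test. The RNA came from Hep3B, an established human hepatocellular carcinoma line grown in RPMI medium, in 3 libraries of cells that received a non-targeting shRNA by lentivirus (control) and 3 libraries of cells that received lentiviral shRNA against PELP1 (PELP1-KD). PELP1 is a coregulator of nuclear receptors. The knockdown cells were puromycin-selected clones that were then pooled. The sample names give the first of the PELP1 shRNAs, whereas the protocol names both. Nothing in the labels says that the 3 libraries of a group came from separate cultures, so each p-value below measures only the spread between these samples. PELP1 RNA itself was 4970 ± 115.2 normalized reads in control and 4695 ± 237.9 in PELP1-KD (SD, n = 3), which is 94.5% of control. Its log2 fold change was -0.08 (SE 0.0412, adjusted p = 0.101 by edgeR's quasi-likelihood test with Benjamini-Hochberg adjustment). The PELP1-KD libraries (4421 to 4840) all lay below the control libraries (4893 to 5102), as groups did not overlap for 58.8% of all genes tested. The difference in PELP1 RNA was thus small and not called, and the libraries are named PELP1-KD by their label. The study reports lower PELP1 protein in its PELP1-KD Hep3B cells by Western blot, which RNA libraries do not measure.

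Apolipoproteins are the protein part of lipoproteins, the particles that carry cholesterol and triglyceride in blood. Most are made in hepatocytes. APOB forms the backbone of very low density and low density lipoproteins, APOA1 and APOA2 are the main proteins of high density lipoprotein (HDL), and the small exchangeable proteins move between particles and govern lipases, receptors and transfer. APOH, although named with them, is better known as a phospholipid-binding plasma protein.

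Libraries held between 26758636 and 34456864 reads assigned to genes. Normalized reads are estimated read counts scaled to a common library size by the trimmed mean of M values (TMM), and RPKM is the same value divided by exon length and by depth, which is the scale used to compare different genes. The 10 hepatocyte markers, none at 0 in any library, summed to between 27592 and 28037 RPM (reads scaled to the library total) in control and between 25110 and 25688 in PELP1-KD. Of these 10 markers, 7 were lower and 2 were higher, among them ALB at a log2 fold change of -0.61 and AFP at 0.62 (adjusted p = 6.37e-14 and 5.87e-13, edgeR). The 14 markers of immune, endothelial, stromal, biliary and intestinal cells summed to between 623.7 and 654.8 RPM in control and between 1010 and 1100 in PELP1-KD, and 4 of the 7 tested were higher and 1 lower. Most of that sum was KRT19, a biliary and progenitor keratin, at 12994 ± 406.6 normalized reads in control and 24212 ± 1194 in PELP1-KD. CD163 and CDH5 had no read in any library. Over all genes tested, 26.7% were lower and 26.8% higher at an adjusted p below 0.05 in edgeR. The part of these marker differences in the values below was not tested, and with bulk RNA fewer cells of a type and less RNA per cell cannot be told apart.

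Of the 10 genes, 9 passed the filter on low counts, and APOM did not. Of those 9, 7 were lower and 2 higher in PELP1-KD at an adjusted p below 0.05 in the edgeR fit over all genes, against 26.7% and 26.8% of the 14537 genes tested. At least 2-fold lower were 3 of the 9 and at least 2-fold higher was none, against 4.79% and 2.85% of all genes. The 3 control values did not overlap the 3 PELP1-KD values for any of the 9, and the same held for 58.8% of all genes. Since the genes were chosen with this contrast known, these counts describe the choice and nothing is read from them. APOA4 was not called by DESeq2, nor in 5 of the 6 fits that left out 1 library. The median log2 fold change was -0.43 over the 9 genes and 0.0045 over all genes tested.

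**Figure D1:**
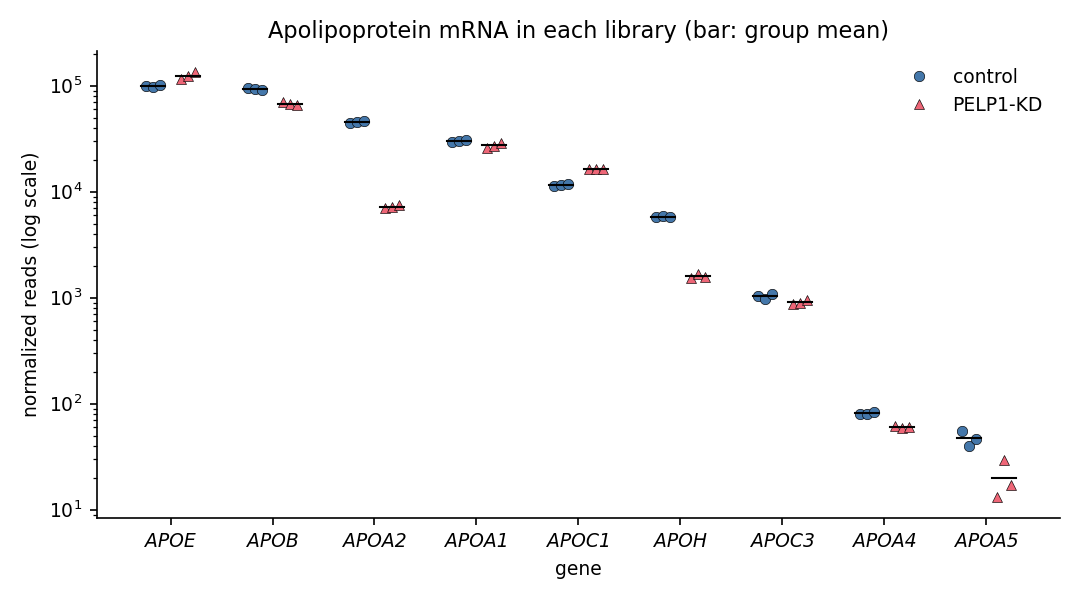
Normalized reads on a log axis of each apolipoprotein gene, with 1 point per library, control and PELP1-KD side by side, and a bar at each group mean, for the 9 genes that passed the filter. APOA2 and APOH lay well below control in every PELP1-KD library, and APOE and APOC1 lay above it.

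The promoters of the 3 genes with the lowest and the 1 with the highest log2 fold change are shown, because these genes carry the widest differences. They are RefSeq sequences on GRCh38.p14, from 250 bases before to 50 bases from the annotated start, written 5′ to 3′ along the gene, whereas the positions of genes in the tables are on hg19. Capitals mark matches to TATAAA or AGGTCA on either strand, which of the windows shown only that of APOA5 holds. APOA2 lies at chr1:161223579-161223878, APOH at chr17:66229366-66229665 and APOA5 at chr11:116792371-116792670, all on the minus strand, and APOC1 at chr19:44914422-44914721 on the plus strand.
APOA2: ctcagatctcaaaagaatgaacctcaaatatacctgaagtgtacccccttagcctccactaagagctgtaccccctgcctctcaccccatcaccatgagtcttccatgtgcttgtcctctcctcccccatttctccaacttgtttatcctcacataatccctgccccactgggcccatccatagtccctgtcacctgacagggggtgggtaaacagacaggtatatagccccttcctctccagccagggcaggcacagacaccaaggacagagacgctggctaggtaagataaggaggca
APOH: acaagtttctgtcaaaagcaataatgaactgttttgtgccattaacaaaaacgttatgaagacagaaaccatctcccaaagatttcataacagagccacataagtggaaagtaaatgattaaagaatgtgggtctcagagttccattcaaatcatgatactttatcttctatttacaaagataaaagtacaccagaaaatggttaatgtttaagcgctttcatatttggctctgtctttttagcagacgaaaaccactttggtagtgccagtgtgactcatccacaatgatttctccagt
APOA5: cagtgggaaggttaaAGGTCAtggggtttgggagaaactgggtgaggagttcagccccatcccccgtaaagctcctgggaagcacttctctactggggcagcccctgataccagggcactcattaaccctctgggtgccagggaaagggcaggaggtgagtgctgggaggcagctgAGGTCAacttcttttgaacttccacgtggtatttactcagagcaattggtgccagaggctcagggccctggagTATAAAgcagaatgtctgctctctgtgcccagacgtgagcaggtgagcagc
APOC1: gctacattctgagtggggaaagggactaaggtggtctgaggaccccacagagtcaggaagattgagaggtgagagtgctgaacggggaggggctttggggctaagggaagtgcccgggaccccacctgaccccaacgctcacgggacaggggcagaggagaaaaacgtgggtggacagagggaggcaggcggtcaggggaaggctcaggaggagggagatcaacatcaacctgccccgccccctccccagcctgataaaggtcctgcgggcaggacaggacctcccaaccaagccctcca
Promoters were found for 7 of the 10 genes, in 10 windows, and none was available for APOA1, APOC3 and APOB, which were not searched. The windows of APOA4, APOE and APOM and a further window of APOA5 (chr11:116791830-116792129) were searched but are not printed. The search covered both strands of every window for CAAAGTCCA and CAAAGGTCA (nuclear receptor sites as bound by HNF4A) and TTGCNNCAA (C/EBP). It also covered the TATA box, spelled TATAAA. The nuclear receptor half-site, AGGTCA, was added after the first results were seen and is contained in the second of these motifs. The first 3 had no match in the 10 windows, and they occurred in 0.384%, 0.407% and 1.99% of the 35116 promoter windows of this length. TATAAA occurred in 11.5% of all windows and in 1 of the 10, the APOA5 window shown. There it began at position -1 from the annotated start, and whether it acts as a TATA box was not tested. AGGTCA occurred in 13.8% of all windows and in 2 of the 10, both of APOA5. A missing match says only that these letters are not in this window.

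APOA2, the second most abundant protein of HDL, differed most. Control libraries held 44651, 45765 and 46655 normalized reads of it, and PELP1-KD libraries held 6953, 7251 and 7436. All 3 PELP1-KD libraries were far below control and close to each other. The mean was 15.8% of control, 6.33-fold lower, at a log2 fold change of -2.66 (SE 0.0338). In RPKM the level was 3074 ± 67.6 in control and 485.3 ± 16.4 in PELP1-KD, so the gene with the highest level of the 10 in control became the fourth. The gene is at hg19 chr1:161192083-161193418 on the minus strand.

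APOA1, the main HDL protein, was close to control. The 3 control libraries had 29331, 29953 and 30466 normalized reads and the 3 PELP1-KD libraries 26122, 26979 and 28935. The groups did not overlap, although the highest PELP1-KD library was near the lowest control library. The log2 fold change was -0.13 (SE 0.0348), and the mean was 91.4% of control. The RPKM of APOA1 was 0.344 to 0.346 times that of APOA2 in the control libraries and 1.96 to 2.05 times it in PELP1-KD, so the order of these HDL genes was opposite in the groups. APOA1 lies at hg19 chr11:116706469-116708338 on the minus strand.

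APOA1 shares a cluster of 48.3 kb on chromosome 11 with APOC3, an inhibitor of triglyceride clearance, APOA4, an apolipoprotein made largely in intestine, and APOA5, an activator of lipoprotein lipase. On hg19 APOC3 lies at chr11:116700624-116703787, APOA4 at chr11:116691418-116694011 and APOA5 at chr11:116660086-116663136. APOC3 had 1041, 979.5 and 1093 normalized reads in control and 871.2, 884.5 and 956.9 in PELP1-KD, at 87.1% of control and a log2 fold change of -0.20 (SE 0.0581). APOA4 was scarce in every library, with 80.7, 79.6 and 83.0 normalized reads in control and 61.4, 59.5 and 59.9 in PELP1-KD, at a log2 fold change of -0.43 (SE 0.154). All 3 PELP1-KD values of APOC3 and of APOA4 were below the lowest control value. APOA5 had 60, 42 and 49 raw reads in control and 13, 25 and 17 in PELP1-KD. Its log2 fold change was -1.28 (SE 0.271), its mean of normalized reads was 41.9% of control, and its PELP1-KD libraries varied widely, with a coefficient of variation (CV) of 41.9% against 15.6% in control. Along the cluster the differences were thus widest at APOA5 and narrowest at APOA1, from 116660086 to 116708338 on hg19. The RPKM ratio of APOA1 to APOC3 was 16.6 to 18.2 in control and 17.8 to 18.1 in PELP1-KD, so its ranges overlapped.

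**Figure D2:**
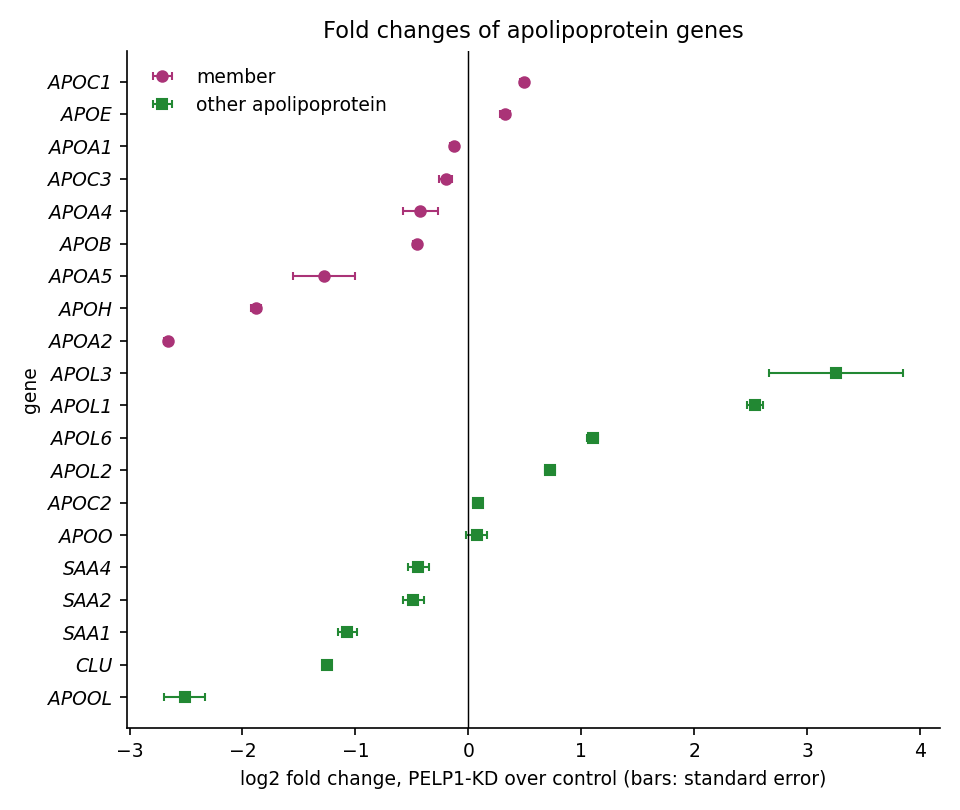
Log2 fold change of PELP1-KD over control for the 9 apolipoprotein genes of the set that passed the filter (circles) and 11 other apolipoprotein genes (squares), with bars for the standard error of the fit. Of the 9, APOA2, APOH and APOA5 were more than 2-fold lower and only APOE and APOC1 lay above 0.

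APOB, the backbone of triglyceride-rich particles, had 94327, 93146 and 92068 normalized reads in control and 70441, 67614 and 65602 in PELP1-KD. The groups were well apart, at 72.9% of control and a log2 fold change of -0.46 (SE 0.0292). Its mRNA is long, with 14121 exon bases in 29 exons (hg19 chr2:21224301-21266945), so its high read count became a modest 210 RPKM in control and 153 in PELP1-KD.

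APOE, the ligand that binds remnant particles to their receptors, and APOC1, a small inhibitor of lipid transfer and uptake, lie side by side on chromosome 19 (hg19 chr19:45409039-45412650 and chr19:45417921-45422606, both on the plus strand) and were the genes with higher values. APOE had 98390, 98005 and 101935 normalized reads in control and 116128, 122889 and 134749 in PELP1-KD, which is 125.3% of control and a log2 fold change of 0.33 (SE 0.042). The PELP1-KD libraries were all above control but spread more, with a CV of 7.57% against 2.18%. APOC1 had 11330, 11675 and 11723 normalized reads in control and 16294, 16251 and 16281 in PELP1-KD, which is 140.6% of control and a log2 fold change of 0.49 (SE 0.0306). The 3 PELP1-KD values of APOC1 were almost the same, with a CV of 0.135%. The RPKM ratio of APOE to APOC1 was 3.28 to 3.397 in control and 2.78 to 3.23 in PELP1-KD, lower in each PELP1-KD library.

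APOH, a phospholipid-binding protein also called beta-2-glycoprotein I, was the second lowest gene. It had 5800, 5931 and 5737 normalized reads in control and 1527, 1678 and 1554 in PELP1-KD. Every PELP1-KD library was far below the lowest control library, and the mean was 27.2% of control, at a log2 fold change of -1.88 (SE 0.0434). In RPKM it was 154.3 in control and 42.0 in PELP1-KD, and it dropped below APOC3, which was 62.0 and 54.0. The gene spans hg19 chr17:64208147-64225556.

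APOM, a carrier of sphingosine-1-phosphate on HDL, (hg19 chr6:31623671-31625987) was scarcely detected. It had 2, 5 and 1 raw reads in control and 5, 0 and 1 in PELP1-KD, so the groups overlapped and no fold was computed. Its exons are listed on 7 sequences of hg19, chromosome 6 and alternative haplotypes of it, so reads can be split between copies and the value is uncertain.

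**Figure D3:**
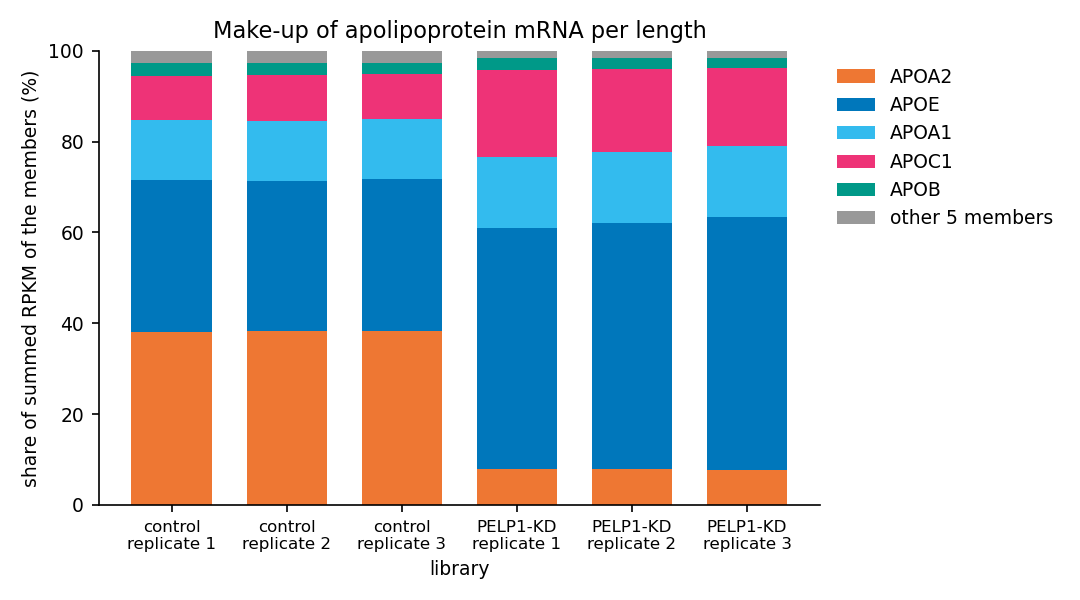
Share of the summed RPKM of the apolipoprotein genes taken by each gene, in percent, as a stacked bar per library. APOA2 took 38.0% to 38.4% in control and 7.66% to 7.96% in PELP1-KD, and APOE took 32.96% to 33.54% and 53.1% to 55.6%. Each share depends on the sum, so a lower APOA2 raises the shares of the other genes.

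Together the 10 genes held 0.902% to 0.915% of library reads in control and 0.768% to 0.812% in PELP1-KD. Their summed RPKM was 7911, 8018 and 8205 in control and 5903, 6132 and 6532 in PELP1-KD, lower in every PELP1-KD library. The sum includes APOA2, whose mean RPKM went from 3074 to 485.3, the widest change of the 10 genes. APOE and APOC1 went the other way, from 2682 to 3360 and from 799.0 to 1123. The lower sum thus says little about the genes other than APOA2. In control the order of RPKM was APOA2, APOE, APOA1, APOC1, APOB, APOH, APOC3, APOA4 and APOA5. In PELP1-KD it was APOE, APOC1, APOA1, APOA2, APOB, APOC3, APOH, APOA4 and APOA5. In both orders the ranges of neighbouring genes over the 3 libraries did not overlap. APOC1 took 9.86% to 10.1% of the summed RPKM in control and 17.2% to 19.1% in PELP1-KD, and APOA1 took 13.2% to 13.3% and 15.6% to 15.7%. Each share depends on the sum, so a lower APOA2 raises the shares of the other genes. APOA1 took a larger share in PELP1-KD although its mean RPKM was lower, at 970.1 against 1061 in control.

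Other genes named as apolipoproteins, or acting as such, did not move one way. Of 17 listed, 11 were tested, of which 5 fell and 4 rose, against 26.7% and 26.8% of all genes tested. The APOL family, intracellular and secreted lipid-binding proteins named for APOL1 and its trypanosome-killing role, held all 4 that rose. APOL1 rose from 192.9 ± 3.54 to 1122 ± 37.7 normalized reads (log2 fold change 2.54, SE 0.0682, adjusted p = 1.42e-16, edgeR with Benjamini-Hochberg adjustment). APOL6 rose from 781.9 to 1677 (adjusted p = 4.13e-13, edgeR) and APOL2 from 1413 to 2330 (adjusted p = 1.06e-10, edgeR). APOL3 was scarce, at 4 reads summed over control and 37 summed over PELP1-KD (adjusted p = 0.000114, edgeR), and its fitted log2 fold change of 3.26 depends on the prior count. APOL4, with 3 and 5 reads, and APOL5, with none, were not tested. These genes are close paralogs, so reads between them may be misassigned.

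Of those that fell, CLU (apolipoprotein J, a secreted chaperone) went from 26429 ± 598.8 to 11096 ± 571.2 normalized reads (log2 fold change -1.25, adjusted p = 3.7e-16, edgeR). SAA1, an acute-phase apolipoprotein, went from 351.0 to 166.8 (adjusted p = 2.26e-09, edgeR), and APOOL, a mitochondrial protein, from 157.5 to 27.7 (adjusted p = 6.41e-10, edgeR). SAA2 and SAA4 also fell, at log2 fold changes of -0.49 and -0.44 (adjusted p = 0.000203 and 0.000464, edgeR), but SAA2 is nearly identical to SAA1, and 544 of the 665 exon bases of SAA4 are shared with another gene. APOC2, the activator of lipoprotein lipase next to APOC1, was at 0.08 (adjusted p = 0.0809, edgeR), and all 729 of its exon bases are shared with the readthrough gene APOC4-APOC2, so its value is uncertain. APOO, also mitochondrial, was at 0.08 (adjusted p = 0.516, edgeR). APOC4, with 27 and 20 reads per group, APOD, with 13 and 16, APOF, with 1 and 0, and LPA, with 1 and 2, were not tested.

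**Figure D4:**
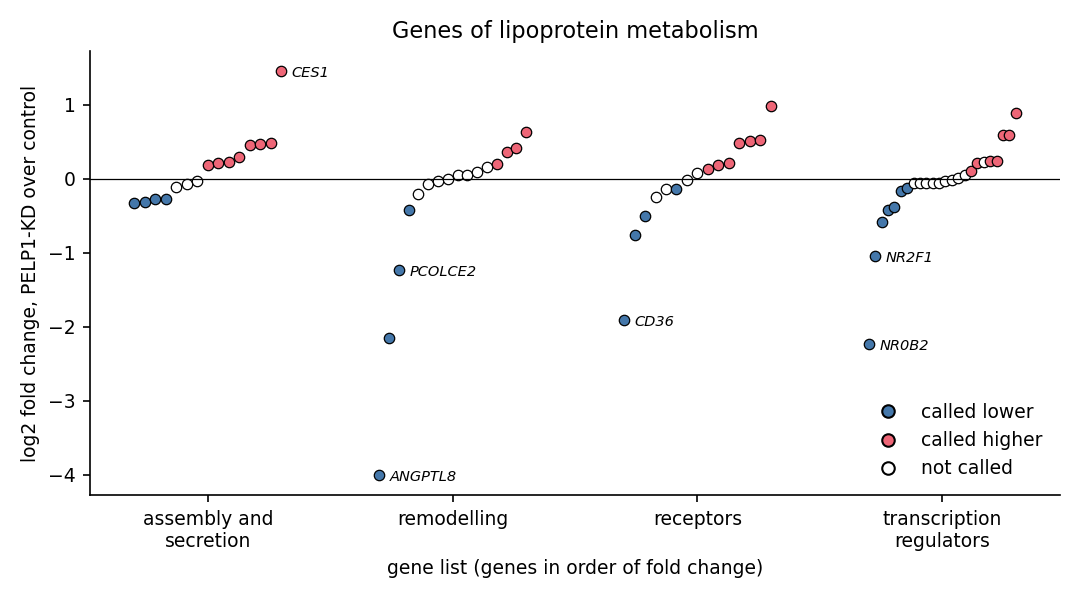
Log2 fold change of PELP1-KD over control for each tested gene of 4 lists of lipoprotein metabolism, blue where it fell, red where it rose and open where it was not called in the edgeR fit over all genes. Each list held genes on both sides of 0, with ANGPTL8 lowest at -4.00.

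Genes for assembly and secretion of the particles were mixed: of 15 tested, 8 rose and 4 fell. Of all genes tested, 26.8% rose and 26.7% fell. CES1, a lipid hydrolase of the endoplasmic reticulum, rose from 4000 to 10971 normalized reads (log2 fold change 1.46, adjusted p = 3.27e-15, edgeR). MTTP, which loads lipid onto APOB, rose from 9559 ± 97.8 to 13321 ± 411.3 (log2 fold change 0.48, adjusted p = 2.66e-10), opposite in sign to APOB, and AADAC rose by a like amount (0.47, adjusted p = 7.7e-08). P4HB, the partner subunit of MTTP, fell (-0.28, adjusted p = 3.71e-07), as did the cargo receptor SURF4 (-0.32, adjusted p = 6.88e-08) and SORT1, which sorts APOB (-0.27, adjusted p = 1.34e-05). Among 16 tested genes that remodel lipoproteins, 4 fell and 4 rose, against 26.7% and 26.8% of all genes tested. ANGPTL8, a regulator of lipase activity listed in the tables as C19orf80, fell from 584.8 to 36.1 normalized reads (log2 fold change -4.00, adjusted p = 1.72e-16, edgeR), and PCOLCE2 fell by 1.24 on the log2 scale (adjusted p = 1.45e-11). The transfer protein PLTP (0.42, adjusted p = 2.22e-08), the endothelial lipase LIPG (0.63, adjusted p = 3.2e-07) and the protease FURIN (0.19, adjusted p = 7.65e-05) rose.

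Of 15 lipoprotein receptors and their regulators, 7 rose and 4 fell, against 26.8% and 26.7% of all genes tested. SORL1 (log2 fold change 0.98, adjusted p = 7.82e-11), LRP1 (0.52, adjusted p = 9.1e-10) and LRP2 (0.51, adjusted p = 1.46e-07), large receptors that bind APOE, rose. SDC1, a heparan sulfate proteoglycan that takes up remnants (-0.51, adjusted p = 1.89e-09), and CD36, with 94 and 22 reads per group (-1.91, adjusted p = 0.000102), fell. Of 24 regulators of apolipoprotein transcription, 7 rose and 7 fell, near the 26.8% and 26.7% of all genes tested. HNF4A, which drives many of these genes in liver, rose from 11527 to 13555 normalized reads (log2 fold change 0.23, adjusted p = 1.37e-05, edgeR). NR0B2, a corepressor of nuclear receptors, fell from 400.0 to 84.9 (-2.23, adjusted p = 1.09e-12, edgeR), and NR2F1 (-1.04, adjusted p = 1.77e-11) and SREBF1 (-0.59, adjusted p = 1.21e-08) also fell. CREB3L3, a liver factor that acts on APOA4 and other genes of the set, rose (0.89, adjusted p = 1.93e-12), as did CEBPB (0.59, adjusted p = 1.57e-10).

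Genes within 250 kb of the apolipoprotein genes were read from the tables' own coordinates. Of 99 such genes 58 were tested, of which 15 fell and 9 rose, against 26.7% and 26.8% of all genes tested. Those of APOM, 51 of the 99, are all listed on several sequences and are uncertain. Without them 12 of 39 fell and 9 rose (30.8% and 23.1%). With the replicate number as a block, 15 of the 58 rose, and without the neighbours of APOM 14 rose. Without control replicate 3, 14 rose with or without the neighbours of APOM. Around APOA2, 16 were tested and all 16 had a negative log2 fold change, with a median of -0.21 and a range from -1.45 to -0.06. Of them 10 fell (62.5%) and none rose, against 26.7% and 26.8% of all genes tested. F11R fell by 0.26 on the log2 scale (adjusted p = 3.74e-06, edgeR) and TOMM40L by 0.33 (adjusted p = 9.73e-06, edgeR). The value of APOA2, -2.66, was lower than that of any of the 16. These groupings by gene were made after the values were seen.

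Around APOE and APOC1, 17 genes were tested, of which 7 rose and 1 fell, with a median of 0.10. These shares were 41.2% and 5.88%, against 26.8% and 26.7% of all genes tested. The 17 include APOC2 and the readthrough gene APOC4-APOC2, which shares all exon bases of APOC2, so largely the same reads count in both. Both were at 0.08 and not called in the main fit. With the replicate block 12 rose and 2 fell, without control replicate 3 12 rose, and without PELP1-KD replicate 3 2 fell. PVR rose (0.56, adjusted p = 6.64e-11) and so did CEACAM19 (0.88, adjusted p = 2.34e-07). Of the 7, APOC1P1, named after its value was seen, is a pseudogene copy of APOC1 whose reads may be those of APOC1, so it is uncertain (0.53). Around the chromosome 11 cluster, where all 4 apolipoprotein genes were lower, 3 genes were tested, of which 2 rose and none fell (66.7% and 0%). Of them SIK3 rose most (0.45, adjusted p = 1.33e-07, edgeR). Around APOH 2 genes were tested, of which 1 fell and none rose (50% and 0%). It was PRKCA, 73.4 kb away, which fell by 0.20 (adjusted p = 0.000563, edgeR). Of all genes tested, 26.8% rose and 26.7% fell, and these groups are too small to compare with that.

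**Figure D5:**
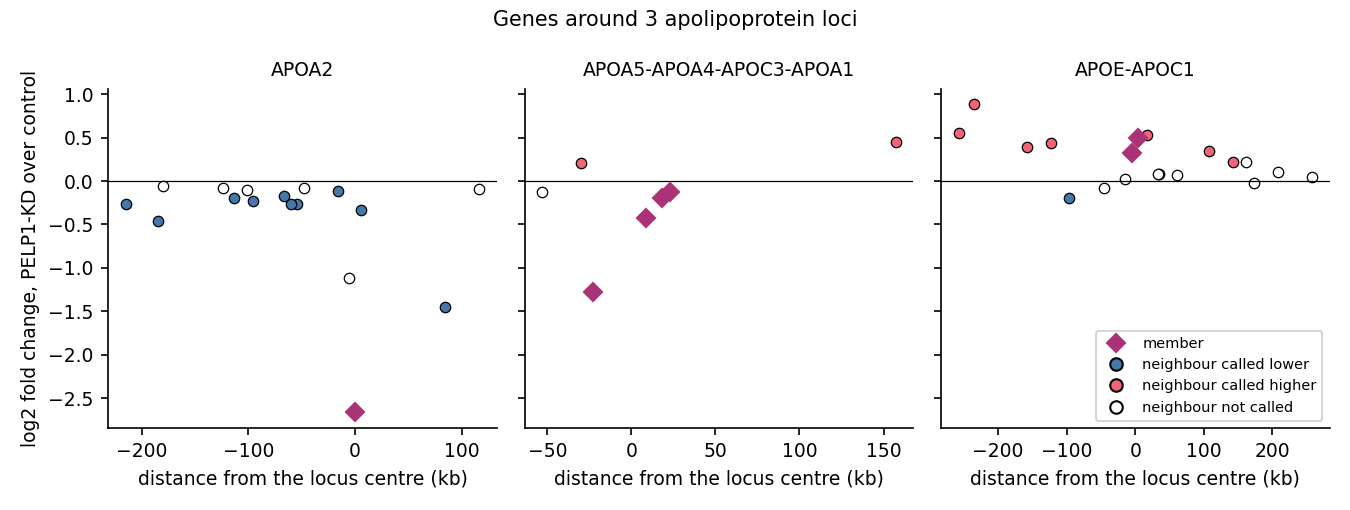
Log2 fold change of PELP1-KD over control against distance in kb from the centre of 3 apolipoprotein loci, with diamonds for apolipoprotein genes and circles for neighbours, blue where they fell, red where they rose and open where not called. All 16 tested neighbours of APOA2 lay below 0, and those of APOE and APOC1 lay mostly above it.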

How the data were processed

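Estimated counts of reads per gene, as the authors deposited them for 3 control and 3 PELP1-KD libraries of Hep3B, were used with hg19 gene models. Per the labels, reads were aligned with HISAT2 and counted with featureCounts (version 1.5.0-p1 in the file headers). Between 10.6% and 13.3% of values were not whole, and values were rounded before testing. The study's methods name TopHat2 and HTSeq instead. The sources also disagree on the kit and read type: ribosomal depletion and paired ends in the sample labels, stranded mRNA and single reads in the series description. Whether counting used strand was not settled, so reads of overlapping genes may be mixed.

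The members and gene lists were chosen with earlier results of these data known. In edgeR 4.0.16 (R 4.3.3), low genes were removed with filterByExpr, libraries were scaled by TMM, and the quasi-likelihood test was fitted on all 14537 genes with Benjamini-Hochberg adjustment and a threshold of 0.05. The steps were tested on simulated data. RPKM used the tables' exon lengths. Named were the 10 members, every listed apolipoprotein gene with a read, PELP1, HNF4A and MTTP, up to 3 genes per direction with the smallest p of each other list and of the neighbours, and the 3 genes most like the lowest and the highest member. Genes named outside this rule (CD163, CDH5, APOL5 and APOC1P1) were chosen after their values were seen. Some genes and a motif that the rule would name are not reported here. Alternatives were other scalings, DESeq2 1.42.0, other filters, a replicate block and leaving out each library. Counts range from 26758636 to 34456864 per library, and the median standard error of a log2 fold change was 0.0632. Same-numbered control and PELP1-KD libraries deviated together over 6370 genes (correlations 0.336, 0.247 and 0.666). Control 2 with PELP1-KD 1 gave 0.418, and control 1 with PELP1-KD 2 gave 0.244. Whether the numbers pair the libraries is therefore not settled. The main fit used group only, without pairing, and the replicate block was run as an alternative.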

Additional observations from a re-analysis of the deposited data

How the results depend on the processing

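No result turned its direction under any alternative run. With the replicate block, APOC2 (0.08) became called, and 15 neighbours of the members rose against 9 without it, 14 against 9 without those of APOM, and around APOE and APOC1 12 against 7 rose and 2 against 1 fell. The block moved every other count of calls reported by less than 1.5 times. Leaving out 1 library gave 9 to 14 neighbours that rose, 8 to 14 without those of APOM, 6 to 12 around APOE and APOC1 that rose and 1 to 2 that fell. The highest counts that rose came without control replicate 3, and 2 fell without PELP1-KD replicate 3. APOC2 was also called with plain library size and without control replicate 3. Leaving out 1 library moved the log2 fold change of APOA5 between -1.64 and -1.06, of APOE between 0.27 and 0.37 and of APOA2 between -2.69 and -2.64. APOA5 rests on at most 60 reads in any library and APOM on at most 5, so among the 10 members their values are the least precise. APOL3 and CD36, with standard errors of 0.592 and 0.343, were less precise than APOA5.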

Other observations

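The genes most like APOA2 and APOC1 over the 6 libraries were found by the root mean square distance of centred log2 normalized reads, among the 11762 genes whose mean level reached 100 normalized reads. This is a description of 6 libraries in 2 groups, in which genes of similar fold are near each other by construction. Nearest to APOA2 were S100A14, a calcium-binding protein of epithelia (distance 0.0342, log2 fold change -2.61), PDCD10 (0.0688, -2.67), a cerebral cavernous malformation gene, and SSTR2, a somatostatin receptor (0.0894, -2.71). S100A14 went from 1145 ± 51.5 to 186.9 ± 8.36 normalized reads, 16.3% of control. Nearest to APOC1 were the matrix protein genes SPARC (distance 0.00933, log2 fold change 0.48) and LAMB1 (0.0141, 0.51), and RELL1 (0.0157, 0.50). LAMB1 went from 15045 ± 111.2 to 21427 ± 109.8 normalized reads, 142.4% of control.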
